A study of Mus musculus with 8 samples.

Results

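Collagen genes encode the chains of the most abundant family of extracellular matrix proteins. They were taken here as the rows of a deposited polysome expression table whose symbol is Col, a number, the letter a and a single digit. The rule found 44 genes of 21765 in the table. The tissue was the mouse main olfactory epithelium, treated with 100 µg/mL cycloheximide, which holds ribosomes on mRNA, when it was dissected. Lysates were separated on sucrose gradients into about 42 fractions. Fractions 27 to 34 were pooled as early (lighter) polysomes and fractions 35 to 42 as late (heavier) polysomes. Wild-type (WT) mice carried floxed Mex3a on both alleles or on one, without Cre. Conditional knockout (cKO) mice carried floxed Mex3a on both alleles together with a Cre allele. Mex3a encodes an RNA-binding protein. There were 2 lysates per genotype, and each gave 1 early and 1 late library, so the 4 groups held 2 libraries each. The labels state neither the animals' age nor how many animals made up a lysate, so replicates may share animals and p-values measure the spread between these libraries.

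A collagen molecule is made of 3 chains wound into a triple helix. Only glycine is small enough to sit at the axis of the helix, so each chain repeats glycine followed by any pair of residues, written Gly-X-Y, with many prolines. The chains are made on ribosomes at the endoplasmic reticulum, hydroxylated on proline and lysine while they fold, and exported in large carriers. Fibril-forming collagens then lose their end domains and assemble into banded fibrils. Other classes form the sheets of basement membranes, beaded filaments or anchoring fibrils, sit on the surface of fibrils, or stay in the cell membrane. In the olfactory mucosa a basement membrane lies under the epithelium, and the lamina propria below it holds fibroblasts, vessels, glands and nerve bundles next to cartilage and bone.

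The repeat is visible in the coding sequence of every class. Shown here are the first 72 bases of the longest uninterrupted Gly-X-Y run of the most abundant member, of the 3 members with the largest and the 3 with the smallest late against early difference, and, for Col4a1, the end of a run where it breaks off. Sequences are spliced coding sequences of GENCODE M21 transcripts, 5′ to 3′, and capitals mark the glycine codons (GGN) that keep the repeat.
Col1a1: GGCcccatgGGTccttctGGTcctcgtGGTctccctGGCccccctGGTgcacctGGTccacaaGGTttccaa
Col8a2: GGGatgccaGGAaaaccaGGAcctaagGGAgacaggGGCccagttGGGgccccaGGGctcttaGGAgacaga
Col13a1: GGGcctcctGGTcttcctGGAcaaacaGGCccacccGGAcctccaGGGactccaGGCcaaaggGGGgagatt
Col18a1: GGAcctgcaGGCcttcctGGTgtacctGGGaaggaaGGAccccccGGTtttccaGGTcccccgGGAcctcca
Col2a1: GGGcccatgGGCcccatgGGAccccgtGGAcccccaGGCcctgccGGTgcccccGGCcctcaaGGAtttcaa
Col9a2: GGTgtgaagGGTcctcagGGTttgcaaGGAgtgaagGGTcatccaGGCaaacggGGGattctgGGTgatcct
Col27a1: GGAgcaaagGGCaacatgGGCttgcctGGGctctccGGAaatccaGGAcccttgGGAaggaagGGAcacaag
Col4a1: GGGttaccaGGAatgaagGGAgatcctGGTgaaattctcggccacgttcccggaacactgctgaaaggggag
In GRCm38, Col1a1 lies at chr11:94936224-94953042, Col8a2 at chr4:126286793-126314330, Col13a1 at chr10:61838236-61979108, Col18a1 at chr10:77052178-77166548, Col2a1 at chr15:97975602-98004695, Col9a2 at chr4:121039385-121055322, Col27a1 at chr4:63214004-63334991 and Col4a1 at chr8:11198423-11312826. In the stretch of Col4a1 the repeat stops after 4 triplets, an interruption of the kind that runs through all type IV chains.
The runs differ in length by class. In 9 of the 11 fibril-forming genes the longest run held 337 to 344 triplets, and in Col24a1 and Col27a1 it held 216 and 217. Runs of the type IV genes held 39 to 66 triplets, those of Col6a1 and Col6a2 87, those of Col9a1, Col9a2, Col9a3 and Col22a1 113, and those of Col15a1 and Col18a1 30. The shortest was the run of Col26a1, with 23 triplets of 439 codons.

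Values in the table are transcripts per 1000000 (TPM), which are per length and so can be set side by side between genes. Whole reads could be inferred from the steps between TPM values, and they summed to 7776792 to 12771079 per library. The targeted gene was low in cKO: Mex3a was at 93.2 to 115.6 TPM in the 4 WT libraries and at 11.1 to 19.8 TPM in the 4 cKO libraries. The title of WT early replicate 2 names it WT while its genotype tag reads cKO. It was treated as WT, and it had the highest Mex3a of all libraries. The counts of calls without it are given beside the results, while the genes that lose their call without it are named only in part. Defining markers of the labelled tissue were present, with Omp of mature olfactory neurons at 2439 to 5393 TPM and Cyp2g1 of sustentacular cells at 697 to 3419. Markers of bone and cartilage were present as well, with Ibsp of osteoblasts at 926 to 3152 TPM, Dmp1 of osteocytes at 208 to 548 and Acan of chondrocytes at 22.1 to 53.3.

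Collagen transcripts made up 0.910% to 2.07% of all TPM in a library and 1.87% to 3.54% of inferred reads. The pair of type I genes held most of this. Col1a1 ranked between 1 and 8 among all genes by TPM in every library, and Col1a2 between 6 and 25. A group of 36 further genes had a mean of at least 1 TPM, from Col4a6 at 1.09 to Col2a1 at 319.9. The other 6 were below this mean and were not tested: Col6a5 (0.564 to 1.32 TPM over libraries), Col4a4 (0.522 to 1.29), Col6a4 (0.299 to 0.991), Col6a6 (0.337 to 0.794), Col4a3 (0.048 to 0.285) and Col19a1 (0.035 to 0.196). Col4a3 and Col4a4 encode type IV chains best known from the kidney glomerulus and the inner ear. Col4a4 stood apart in direction, although it was not tested: after scaling it was lower in late than in early polysomes in 4 of 4 lysates, on 11 to 49 reads per library. In cKO lysate 1 the difference was only -0.013 on the log2 scale, and its deposited TPM there was higher in late (0.839) than in early (0.808), so the count of 4 rests on the scaling. Members lay on 15 chromosomes, and several lay side by side, such as Col3a1 and Col5a2, Col6a1 and Col6a2, and the head-to-head pairs Col4a1 and Col4a2, Col4a3 and Col4a4, and Col4a5 and Col4a6.

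**Figure D1:**
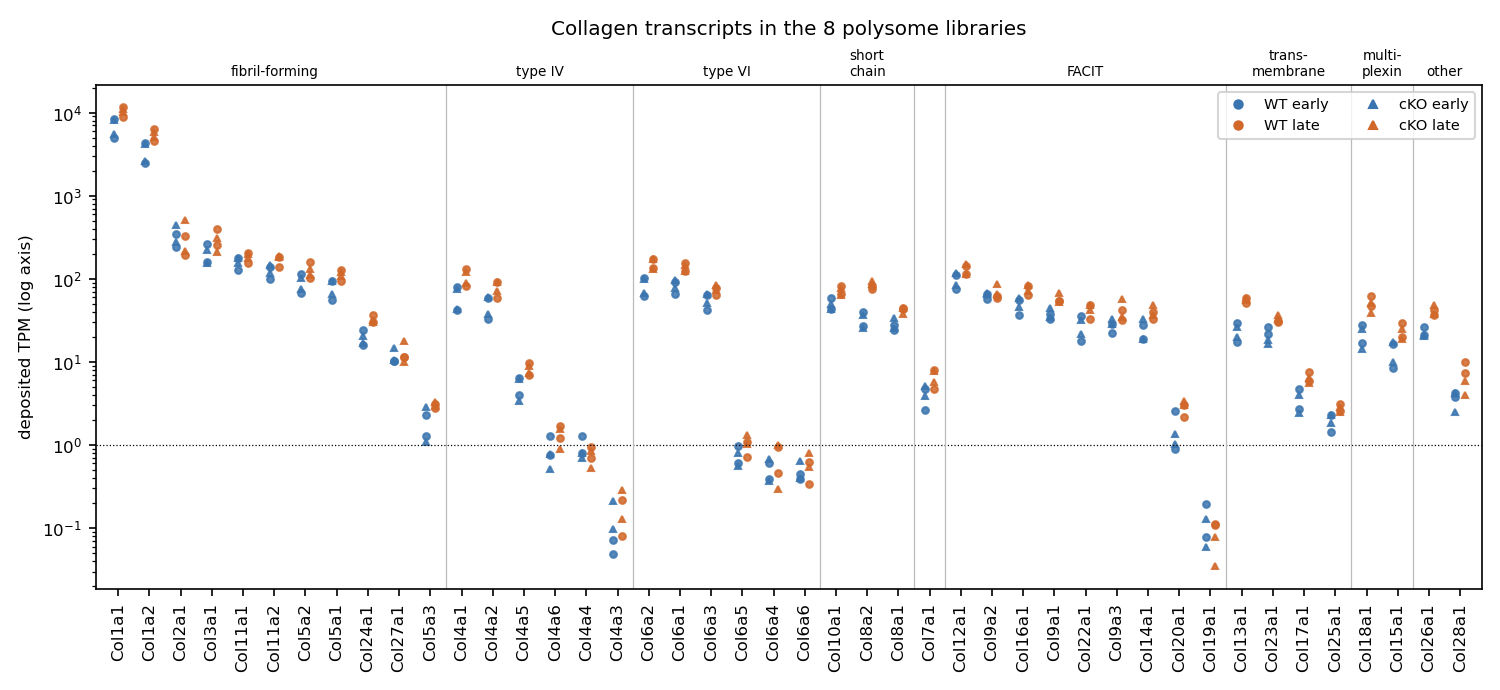
Deposited TPM (log axis) of the 44 collagen genes in each of the 8 libraries, by class and by mean level within a class (the narrow unlabelled column is Col7a1), with circles for WT, triangles for cKO, blue for early and orange for late polysomes. Col1a1 and Col1a2 lie far above every other member, and the dotted line at 1 TPM marks the mean below which the 6 lowest members were not tested.

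The first comparison asked how collagen transcripts were divided between lighter and heavier polysomes. Most were relatively more abundant in the late pool. Of the 38 collagen genes tested, 24 were higher in late than in early polysomes on average over genotypes and 0 were lower (limma on log2 of scaled TPM plus 1, Benjamini-Hochberg adjusted p below 0.05 over 16097 genes). Among all genes tested 34.3% were called higher in late and 68.9% were called in either direction. The median late minus early difference of the 38 was 0.51 on this log2 scale, against -0.011 over all genes tested, and it was positive for 36. The largest rises were those of Col8a2, Col13a1 and Col18a1, each more than 2-fold by the ratio of group means, and no member was called lower. The 2 negative differences, of Col2a1 and Col9a2, did not pass the test.

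The direction was shared by the lysates. Late was above early in all 4 lysates for 34 of the 38 genes, against 38.2% of all genes tested. All 4 late libraries lay above all 4 early libraries for 12 of the 38, a share near the 31.5% of all genes tested. The median difference of the 38 was 0.45 and 0.66 in the WT lysates and 0.42 and 0.56 in the cKO lysates. In WT alone 10 of 38 were called higher (27.1% of all genes, and 54.8% in either direction), and in cKO alone 11 (28.9% and 58.1%). In this fit, which did not pair libraries by lysate, the share of members called higher within a genotype was near that of all genes. With pairing the share of members was larger, as given below. The 8 called in both were Col6a1, Col6a2, Col8a2, Col9a1, Col13a1, Col18a1, Col24a1 and Col26a1.

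Collagen levels differed between the lysates of a genotype, as described further on, and a second fit paired each late library with the early one of its lysate by a replicate block. With the lysate as a block, 29 of the 38 were called higher on average (34.1% of all genes), 25 in WT (26.9%) and 24 in cKO (28.8%). The block added Col3a1, Col5a1, Col5a2, Col6a3, Col7a1 and Col12a1 to the 24 calls and ended that of Col20a1. Without the block the count fell to 12 without WT early replicate 2, 13 without WT late replicate 1, 11 without cKO early replicate 2 and 13 without cKO late replicate 1. Most members were low in the early replicate 2 libraries and high in the late replicate 1 libraries of their fraction. The WT count was 4 without WT early replicate 2 or WT late replicate 1 and 18 without WT early replicate 1. The cKO count was 5 without cKO early replicate 2, 6 without cKO late replicate 1 and 7 without cKO late replicate 2. The median difference on average over genotypes stayed between 0.41 and 0.63 when any 1 library was left out.

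**Figure D2:**
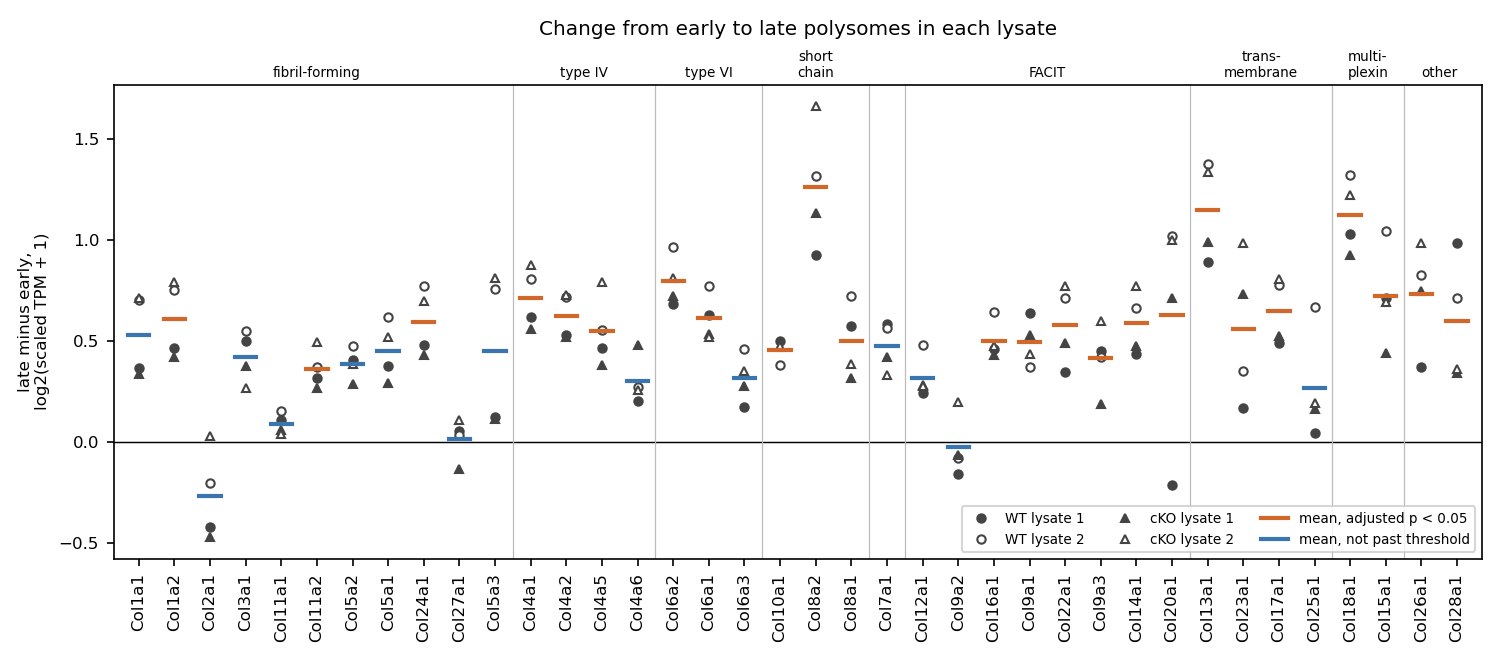
Late minus early difference in log2(scaled TPM + 1) of the 38 tested collagen genes in each of the 4 lysates (circles WT, triangles cKO, filled lysate 1, open lysate 2), with a bar for the mean, orange where the adjusted p was below 0.05 and blue otherwise. Points of 34 genes all lie above 0, Col8a2, Col13a1 and Col18a1 reach highest, and Col2a1, Col9a2 and Col27a1 lie around or below 0.

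Fibril-forming collagens, the class of the main tensile fibrils, gave 3 calls among 11 genes, all higher in late (Col1a2, Col11a2 and Col24a1), with a median difference of 0.42. This share of calls was below the 34.3% of all genes tested that were called higher, and with the lysate block the class gave 6 calls, against 34.1%. Col1a1 encodes the α1 chain of type I collagen, the fibril of bone, skin and tendon. It was at 8436, 4996, 8240.1 and 5533 TPM in early libraries (WT replicates 1 and 2, then cKO replicates 1 and 2) and at 11534, 8861, 11028 and 10185 in late libraries in the same order. Replicate 1 was the higher one in every group. The deposited early and late values did not overlap, and after scaling they did. Its difference of 0.53 (SE 0.24, n = 8 libraries) gave an adjusted p of 0.0755 by limma and was positive in 4 of 4 lysates. Col1a2, the partner chain, was at 4278, 2496, 4133 and 2624 TPM in the early libraries and at 6273, 4582, 5864 and 5096 in the late ones, with the same pattern over replicates. It rose by 0.61 (SE 0.23, limma adjusted p = 0.043), and this call was lost when any of 5 libraries was left out (limma adjusted p 0.0619 without cKO late replicate 2 to 0.159 without WT early replicate 2).

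Col3a1, which forms fine fibrils with type I collagen in soft tissue, was at 261, 158, 225 and 156 TPM in early and 393, 253, 309 and 211 in late libraries, in the same order. The groups overlapped because replicate 1 was high in both fractions. The difference of 0.42 (SE 0.22) missed the threshold without the lysate block (limma adjusted p = 0.122) and passed it with the block (0.00253). Col5a1 and Col5a2, which start type I fibrils, had differences of 0.45 (SE 0.18) and 0.38 (SE 0.20) and were likewise called with the block only (limma adjusted p = 0.00324 and 0.00296).

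Genes of cartilage fibrils behaved in more than one way. Col2a1, the main fibril chain of cartilage, was at 243, 343, 280.2 and 449 TPM in early and 192, 324, 214 and 515 in late libraries. It was lower in late in 3 of 4 lysates, and its difference of -0.27 (SE 0.30, limma adjusted p = 0.438) was the lowest of the members. Without cKO late replicate 1 the log2 difference was 0.034. Col11a1 and Col11a2 encode partner chains that start type II fibrils. Col11a1 was at 129 to 180.4 TPM in early and 156 to 204 in late libraries, with a difference of 0.088 (SE 0.13, limma adjusted p = 0.561). Col11a2 was at 98.8 to 147 and 139.9 to 188 TPM and rose by 0.36 (SE 0.13, limma adjusted p = 0.0346).

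The pair of fibrillar chains with shorter helices also differed from each other. Col24a1, known from developing bone, was at 15.8 to 24.3 TPM in early and 29.8 to 36.3 in late libraries, with no overlap, and rose by 0.59 (SE 0.14, limma adjusted p = 0.00453). Col27a1, known from cartilage, was at 10.4, 10.4, 10.5 and 14.6 TPM in early and 11.5, 11.6, 10.0 and 17.8 in late libraries. The values of the 2 fractions were interleaved, and the difference was 0.014 (SE 0.17, limma adjusted p = 0.948). It was -0.0010 with voom on inferred reads, -0.105 without cKO early replicate 1 and -0.17 without cKO late replicate 2. Col5a3, at 1.09 to 3.32 TPM, was not called.

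Type IV collagen forms the network of all basement membranes, and 3 of its 4 tested genes were called higher in late polysomes (34.3% of all genes tested). Col4a1 was at 80.0, 42.4, 76.2 and 43.3 TPM in early libraries (WT replicates 1 and 2, cKO replicates 1 and 2) and at 131, 81.7, 119 and 89.97 in late libraries. Col4a2 was at 59.4, 32.5, 59.6 and 37.5 in early and 91.4, 58.9, 91.0 and 70.4 in late libraries. The genes lie head to head and overlap by 22 bases, with Col4a2 at chr8:11312805-11449287 on the plus strand. Within each fraction both genes were high in replicate 1 and low in replicate 2, and late was above early in 4 of 4 lysates. Col4a1 rose by 0.71 (SE 0.26, limma adjusted p = 0.0341) and Col4a2 by 0.62 (SE 0.23, limma adjusted p = 0.0401).

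Col4a5, of the other widespread type IV network, was at 3.37 to 6.45 TPM in early and 6.92 to 9.84 in late libraries and rose by 0.55 (SE 0.21, limma adjusted p = 0.0467). Col4a6, its head-to-head neighbour, rested on 15 to 48 reads per library, at 0.514 to 1.71 TPM, and was not called (0.30, SE 0.21, limma adjusted p = 0.239). The calls of Col4a1, Col4a2 and Col4a5 were each lost without WT early replicate 2, WT late replicate 1, cKO early replicate 2 or cKO late replicate 1 (limma adjusted p 0.107 to 0.156), and that of Col4a5 also without cKO late replicate 2 (0.057). With the lysate block their adjusted p was 0.000604, 0.000747 and 0.00865.

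Type VI collagen forms beaded filaments around cells, from 1 chain each of Col6a1, Col6a2 and Col6a3. Col6a1 was at 92.8, 66.0, 96.3 and 76.9 TPM in early and 153, 124, 148 and 124 in late libraries. Col6a2 was at 102, 62.6, 98.1 and 66.8 in early and 175, 134, 172 and 132 in late libraries. For both, all late libraries lay above all early libraries, and they rose by 0.61 (SE 0.13, limma adjusted p = 0.00361) and 0.79 (SE 0.19, limma adjusted p = 0.00519). Both were called in WT and in cKO alone, and on average with any 1 library left out. Col6a3, the long chain of the filament, was at 64.0, 41.8, 65.4 and 51.6 TPM in early and 76.8, 63.2, 84.0 and 74.2 in late libraries. Its difference was 0.31 (SE 0.14), with a limma adjusted p of 0.0811 without and 0.0124 with the lysate block.

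The short-chain network collagens, compact molecules that build hexagonal lattices, were all called higher in late (34.3% of all genes tested). Col8a2, an α chain of type VIII collagen known from the corneal Descemet membrane and vessel walls, had the largest rise of all members. It was at 40.2, 27.3, 36.6 and 25.9 TPM in early and 81.9, 75.7, 86.2 and 94.4 in late libraries, a ratio of mean scaled TPM of 2.41. No early value came near a late one, and the log2 difference was 1.26 (SE 0.14, limma adjusted p = 7.76e-05), from 0.92 to 1.66 over the 4 lysates. Col8a1, the other type VIII chain, rose less, by 0.50 (SE 0.11, limma adjusted p = 0.00368), from at most 34.0 TPM in early to at least 37.7 in late libraries. Col10a1, the collagen of hypertrophic cartilage, was at 43.3, 58.1, 43.1 and 49.6 TPM in early and 65.4, 82.9, 63.4 and 77.8 in late libraries, higher in replicate 2 each time. It rose by 0.45 (SE 0.12, limma adjusted p = 0.0108), with all late above all early libraries. Col7a1, which makes the anchoring fibrils under stratified epithelia, was at 2.65 to 5.19 TPM in early and 4.78 to 7.97 in late libraries. Its difference of 0.47 (SE 0.21) was called with the lysate block (limma adjusted p = 0.0127) and not without it (0.0764).

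Fibril-associated collagens sit on the surface of fibrils, their helices broken by non-collagenous stretches. Of their 8 tested genes 6 were called higher (Col9a1, Col9a3, Col14a1, Col16a1, Col20a1 and Col22a1), against 34.3% of all genes tested. Col12a1, found on type I fibrils in dense connective tissue, was the most abundant, at 112, 75.1, 116 and 84.0 TPM in early and 141, 115, 149 and 114 in late libraries. Its difference was 0.32 (SE 0.16), called with the lysate block (limma adjusted p = 0.00943) and not without it (0.115). Col16a1 was at 55.9, 37.1, 58.4 and 45.7 TPM in early and 81.9, 63.6, 83.6 and 71.6 in late libraries and rose by 0.50 (SE 0.15, limma adjusted p = 0.0164). Its call was lost without WT early replicate 2, WT late replicate 1, cKO early replicate 2 or cKO late replicate 1 (limma adjusted p 0.0547 to 0.0624).

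The 3 genes of type IX collagen, which is linked to the surface of cartilage fibrils, had unequal differences. Col9a2 was at 66.1, 56.9, 65.6 and 67.1 TPM in early and 62.7, 58.7, 66.4 and 86.7 in late libraries. The fractions overlapped almost fully, and the difference was -0.028 (SE 0.091, limma adjusted p = 0.799). Its sign changed with the scaling, to 0.087 with TPM as deposited and 0.010 with quantile normalization, and without WT early replicate 1 (0.020), WT late replicate 2 (0.00042) or cKO late replicate 1 (0.054). Col9a1, at 32.7 to 44.3 TPM in early and 52.9 to 67.7 in late libraries, rose by 0.49 (SE 0.11, limma adjusted p = 0.00419). Col9a3 was at 22.0, 28.5, 29.0 and 33.1 in early and 32.3, 41.9, 35.0 and 56.8 in late libraries and rose by 0.41 (SE 0.16, limma adjusted p = 0.0449). The call of Col9a3 was lost without WT early replicate 1, WT late replicate 2, either cKO early replicate or cKO late replicate 2 (limma adjusted p 0.0585 to 0.146), and 6.07% of its exon bases are shared with Tcfl5. Col20a1 rested on as few as 18 reads in a library.

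Transmembrane collagens anchor cells to the matrix, and part of them is shed. Of 4 genes 3 were called higher in late (34.3% of all genes tested). Col13a1, found at cell-matrix junctions and at the neuromuscular synapse, was at 29.1, 17.4, 26.3 and 20.0 TPM in early and 58.2, 51.0, 56.4 and 58.4 in late libraries. Every late library had more than any early one, and the rise was 1.15 (SE 0.15, limma adjusted p = 0.00022), a ratio of mean scaled TPM of 2.23. Col23a1 was at 26.2, 21.4, 18.4 and 16.2 TPM in early and 31.3, 30.1, 33.1 and 37.0 in late libraries and rose by 0.56 (SE 0.088, limma adjusted p = 0.000558), with no overlap. Col17a1, the hemidesmosome collagen of basal epithelial cells, was at 2.43 to 4.73 and 5.56 to 7.47 TPM and rose by 0.65 (SE 0.19, limma adjusted p = 0.0146). Col25a1, at 1.45 to 3.12 TPM, was not called (0.26, SE 0.17, limma adjusted p = 0.194).

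Both multiplexins, basement membrane zone collagens that carry long sugar chains, were called higher in late (34.3% of all genes tested). Col18a1, whose last domain is released as endostatin, was at 28.1, 16.9, 24.9 and 14.3 TPM in early and 61.9, 47.6, 51.0 and 38.8 in late libraries. The lowest late value exceeded the highest early one, and the rise was 1.12 (SE 0.21, limma adjusted p = 0.00154), a ratio of mean scaled TPM of 2.19. The call was present in WT and in cKO alone, but in WT it was lost without WT early replicate 2 (limma adjusted p = 0.0853) or WT late replicate 1 (0.0712), and in cKO without cKO early replicate 2 (0.107) or cKO late replicate 1 (0.0897). Col15a1 was at 16.4, 8.45, 17.3 and 10.1 TPM in early and 29.2, 20.2, 25.2 and 18.9 in late libraries and rose by 0.72 (SE 0.24, limma adjusted p = 0.0251). This call was lost without WT early replicate 2, WT late replicate 1, cKO early replicate 2 or cKO late replicate 1 (limma adjusted p 0.0841 to 0.0894).

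The remaining pair, Col26a1 and Col28a1, was also called higher (34.3% of all genes tested). Col26a1 was at 26.6, 21.1, 20.7 and 21.1 TPM in early and 36.8, 41.6, 37.4 and 47.8 in late libraries. All early values lay below the late ones, with WT replicate 1 the highest of the early libraries. The gene rose by 0.73 (SE 0.10, limma adjusted p = 0.000291), from 0.37 in WT lysate 1 to 0.98 in cKO lysate 2. Col28a1, known from the surroundings of peripheral glia, was at 4.24, 3.74, 4.22 and 2.53 TPM in early and 9.95, 7.37, 5.94 and 3.94 in late libraries. The rise was 0.60 (SE 0.19, limma adjusted p = 0.0196), in 4 of 4 lysates, and the call was lost without WT early replicate 2, WT late replicate 1, cKO early replicate 2 or cKO late replicate 1 (limma adjusted p 0.0597 to 0.0739).

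A long mRNA has room for more ribosomes, and over all tested genes the late minus early difference went with coding length (Spearman rho 0.63 across 14672 genes, which share the same libraries). Genes were placed in 10 bins of near equal size by coding length. Collagen coding sequences are long, and 26 of the 38 fell in the longest bin, of 3399 nt or more. The median difference in that bin was 0.50 over all its genes and 0.51 over its collagen genes. Of the 38, 24 were above the median of their own bin and 14 below. Set against genes of like length, the pattern of the members was thus spread on both sides.

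Among the collagen genes themselves the longest did not have the largest differences. Across the 38, rho between the difference and coding length was -0.28, from -0.33 to -0.17 in single lysates, and rho with the longest Gly-X-Y run was -0.46. Col8a2, with 698 codons, had a larger difference than 98.8% of genes in its length bin, and Col13a1, with 738 codons, than 96.9%. Col26a1, the shortest tested member, exceeded 85.5% of its bin. Col18a1 was the long member that stood highest, above 96.0% of the longest bin. At the other end Col2a1 exceeded 2.32% of the longest bin, Col27a1 10.5% and Col11a1 13.7%. The 3 longest, Col6a3, Col12a1 and Col7a1, of 2943 to 3283 codons, exceeded 30.0%, 30.2% and 47.7%. The sequences printed above for Col8a2 and Col2a1 hold the same unbroken repeat, in runs of 60 and 339 triplets.

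**Figure D3:**
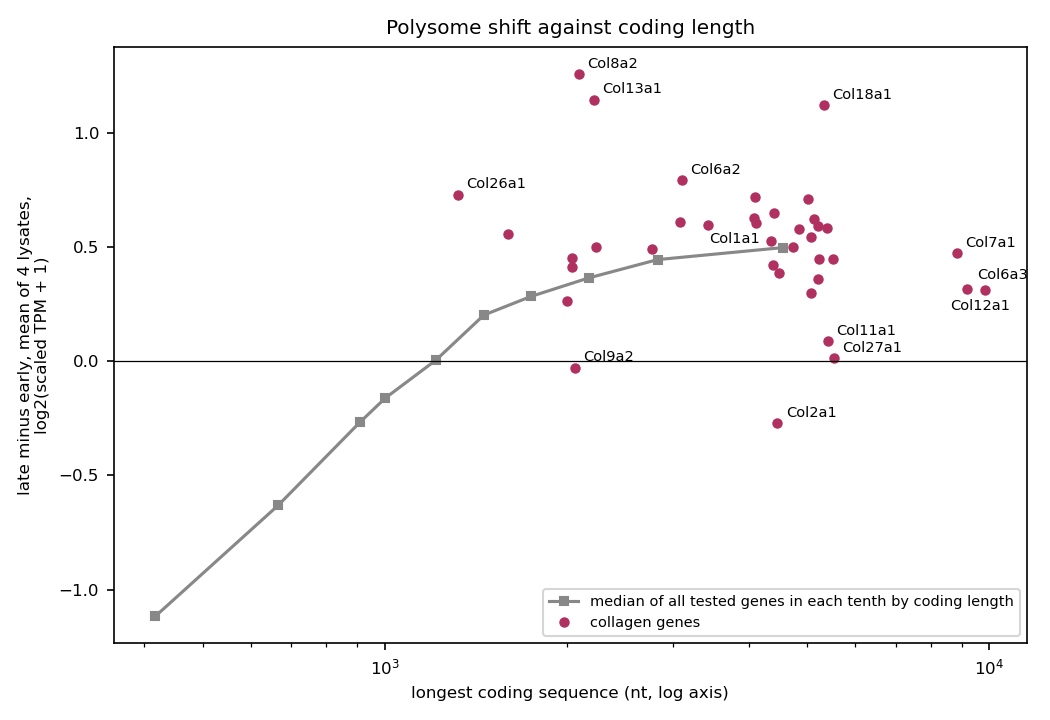
Late minus early difference, mean of 4 lysates in log2(scaled TPM + 1), against the longest coding sequence (nt, log axis) for the 38 tested collagen genes (points), with the median of all tested genes in each of 10 bins by coding length (grey line). The line climbs with length to 0.50 in the longest bin, where collagen genes lie on both sides of it, with Col18a1 far above and Col2a1 far below. The shorter Col8a2 and Col13a1 lie far above the line at their own lengths.

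Chains that assemble in 1 molecule could be set side by side, as TPM is per length. The gene lengths used for TPM are not given. The level of a ratio depends on them and was not tested against the numbers of chains in a molecule. Type I collagen is built from 2 chains of Col1a1 and 1 of Col1a2. The ratio of Col1a1 to Col1a2 in TPM was 1.97, 2.00, 1.99 and 2.11 in early libraries (WT replicates 1 and 2, cKO replicates 1 and 2) and 1.84, 1.93, 1.88 and 2.00 in late libraries. It kept within a 1.15-fold range although Col1a1 itself ranged from 4996 to 11534 TPM. The mean was 2.02 ± 0.061 in early and 1.91 ± 0.069 in late libraries (SD, n = 4), lower in late in 4 of 4 lysates.

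The other pairs differed in how far their ratios moved between fractions. The ratio of Col4a1 to Col4a2, which join in the proportion 2 to 1 in basement membranes, was 1.27 ± 0.082 in early and 1.35 ± 0.071 in late libraries, with overlapping values, and higher in late in 4 of 4 lysates. That of Col5a1 to Col5a2 was 0.859 ± 0.051 and 0.900 ± 0.069, lower in late in 1 of 4 lysates. That of Col6a1 to Col6a2 was 1.02 ± 0.10 and 0.898 ± 0.037, lower in late in 4 of 4 lysates, with overlapping values. In 5 further pairs the early and late values of the libraries did not overlap. Col8a1 to Col8a2 went from 0.873 ± 0.12 in early to 0.513 ± 0.079 in late libraries, and Col6a3 to Col6a1 from 0.668 ± 0.024 to 0.545 ± 0.046. Col9a1 to Col9a2 went from 0.585 ± 0.089 to 0.839 ± 0.061, and Col9a3 to Col9a2 from 0.442 ± 0.077 to 0.603 ± 0.098. Col11a1 to Col11a2 went from 1.29 ± 0.042 to 1.07 ± 0.074 (all SD, n = 4). Each of these 5 ratios moved the same way in 4 of 4 lysates. An exact permutation test was not run on the ratios, which are given as descriptions.

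**Figure D4:**
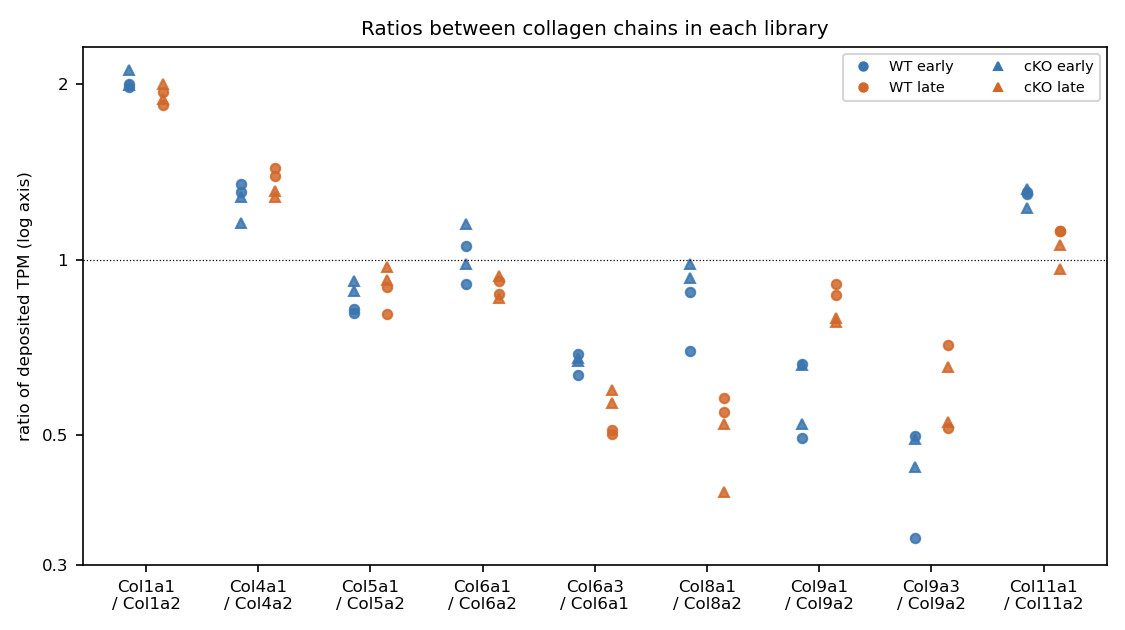
Ratio of deposited TPM between chains of the same or partner collagens (log axis) in each of the 8 libraries, blue for early and orange for late polysomes, circles WT and triangles cKO. The ratio of Col1a1 to Col1a2 stays between 1.84 and 2.11, while those of Col8a1 to Col8a2 and Col9a1 to Col9a2 separate early from late libraries.

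Collagen levels also differed between the lysates of a genotype. In replicate 1, 25 of the 38 were higher than in replicate 2 in all 4 groups (12.0% of all genes tested), and 4 were lower in all 4 groups (8.84%), Col2a1, Col9a3, Col10a1 and Col27a1. For Col27a1 the WT differences were only -0.017 in early and -0.00020 in late on the log2 scale. Its deposited TPM in WT early was higher in replicate 1 (10.375) than in replicate 2 (10.361), so its place among the 4 rests on the scaling. The median replicate 1 minus replicate 2 difference was 0.36 over the 38 and 0.018 over all genes, on the log2 scale. Col4a1, Col4a2, Col15a1 and Col3a1 were on average at least 1.5-fold higher in replicate 1 (1.62, 1.55, 1.55 and 1.53), against 1.27% of all genes tested. Col2a1 went the other way, 1.73-fold higher in replicate 2. Replicate numbers of WT and cKO are not stated to mark a shared day or batch, so the agreement of the numbers across genotypes has no label behind it.

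Some other gene lists went with this split and others did not. The 5 chondrocyte markers in the table (Acan, Matn1, Matn3, Hapln1 and Chad) were all higher in replicate 2 in all 4 groups (8.84% of all genes tested). Their summed scaled TPM was 47.4 to 64.8 in replicate 1 and 72.8 to 112 in replicate 2 libraries. Of 17 other basement membrane genes tested, 12 were higher in replicate 1 in all 4 groups (12.0% of all genes tested). Their sums overlapped, at 434 to 589 in replicate 1 and 308 to 523 in replicate 2 libraries. In the other lists of collagen partners described below, genes higher in replicate 1 in all 4 groups were 6 of 14 matrix proteoglycans and fibril partners and 5 of 9 receptors. They were 4 of 15 for chain modification, 1 of 15 for folding and export and 1 of 8 for collagen breakdown. For propeptide cleavage they were 0 of 8 and for crosslinking 0 of 5. Markers higher in replicate 1 in all 4 groups were 2 of 7 for fibroblasts, 2 of 6 for osteoblasts and bone and 2 of 6 for endothelium. They were 2 of 5 for horizontal basal cells, 1 of 6 for pericytes and smooth muscle and 1 of 5 for ensheathing glia. For sustentacular cells and for mature olfactory neurons they were 0 of 6. In bulk tissue, more cells of a type and more RNA per cell cannot be told apart, and the part of tissue composition in these differences was not tested.

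**Figure D5:**
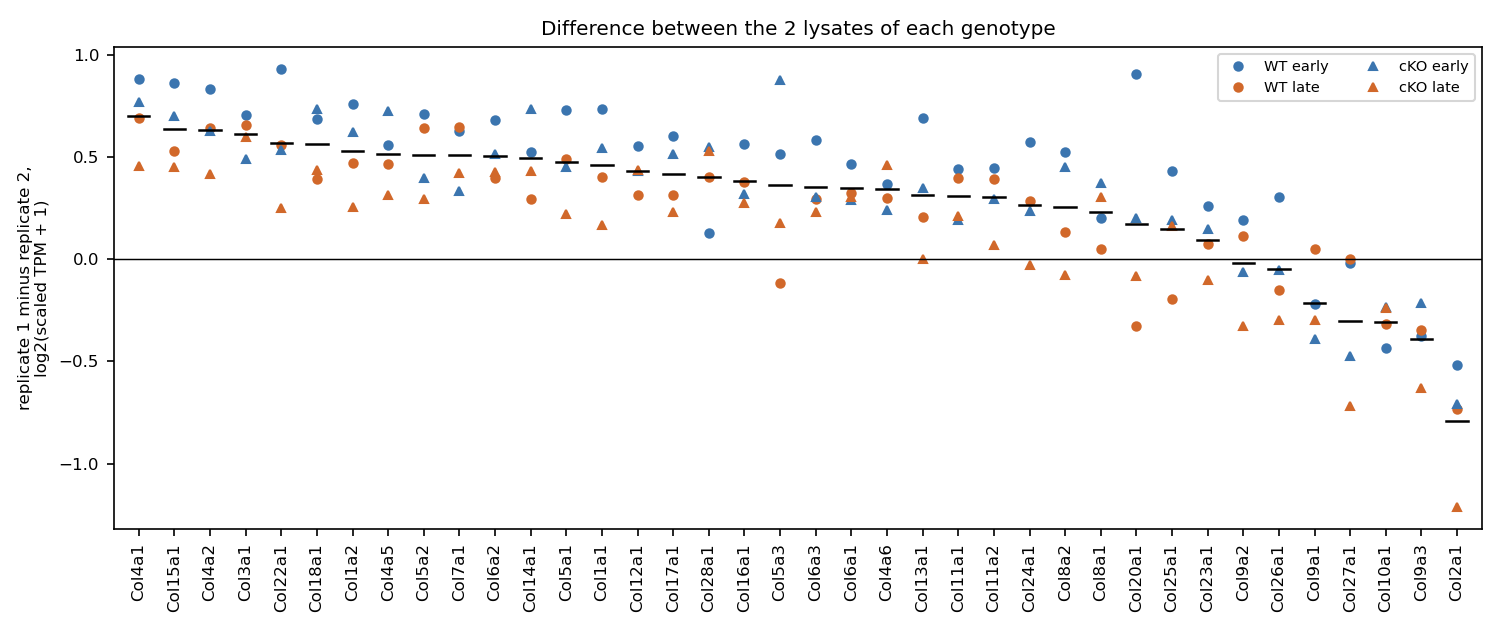
Replicate 1 minus replicate 2 difference in log2(scaled TPM + 1) of the 38 tested collagen genes within each of the 4 groups (circles WT, triangles cKO, blue early, orange late), with a black bar for the mean of the 4 groups. Col4a1, Col15a1, Col4a2 and Col3a1 stand highest and Col2a1, Col9a3, Col10a1 and Col27a1 lie at or below 0 in all groups.

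The second comparison asked whether loss of Mex3a changed collagen transcripts on polysomes. No collagen gene passed the threshold in any genotype comparison. By limma 0 of 38 were called in early polysomes (1 at an unadjusted p under 0.05), 0 in late ones (2), 0 for lysates averaged over both fractions (1) and 0 in the interaction of genotype and fraction (1). The adjusted calls over all genes tested were 0.0435%, 0.0124%, 0.00621% and 0.00621%, and the shares at an unadjusted p under 0.05 were 6.64%, 9.36%, 11.3% and 2.85%. With voom on the inferred reads the calls among collagens were also 0 in each, with 1, 2, 2 and 1 at an unadjusted p under 0.05. The median cKO minus WT difference was 0.11 in early, 0.10 in late and 0.089 for the lysates averaged over fractions, where the median SE of a gene was 0.21. For the averaged lysates it was 0.28 without WT lysate 1, -0.12 without WT lysate 2, -0.055 without cKO lysate 1 and 0.21 without cKO lysate 2, so its sign rested on single lysates. In early polysomes the median was -0.23 without WT early replicate 2 and -0.14 without cKO early replicate 1, and in late polysomes it was -0.081 without WT late replicate 2 and -0.0080 without cKO late replicate 1.

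The members with the smallest unadjusted p on lysate means were Col9a2, Col28a1 and Col9a3. Col9a2, whose library values are given above, was the only one whose WT and cKO libraries did not overlap in both fractions in the same direction after scaling, against 13.2% of all genes tested. Its scaled mean in early polysomes was 62.8 ± 6.0 TPM for WT and 70.5 ± 2.2 for cKO, and in late polysomes 57.5 ± 3.2 for WT and 74.3 ± 12.0 for cKO (SD, n = 2). The cKO minus WT difference on lysate means was 0.26 (SE 0.096, unadjusted p = 0.0346, adjusted p = 0.411 by limma). Col28a1 was lower in cKO, by -0.42 (SE 0.22, limma adjusted p = 0.514), mainly in late libraries, where WT had 9.95 and 7.37 TPM and cKO 5.94 and 3.94. Col9a3 had a difference of 0.33 (SE 0.18, limma adjusted p = 0.529). Chondrocyte markers stood beside these: their median difference between cKO and WT was 0.36 on lysate means, with 0 of 5 called, and their part in the values of Col9a2 and Col9a3 was not tested.

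The most abundant collagens were close between genotypes relative to their error. Col1a1 differed by 0.11 (SE 0.25, limma adjusted p = 0.891) and Col1a2 by 0.068 (SE 0.25, limma adjusted p = 0.936) on lysate means. With 2 lysates per genotype, differences larger than their error could also go uncalled, as that of Col9a2 did (0.26, SE 0.096). The 1 gene with an unadjusted p under 0.05 in the interaction, Col23a1, is described after its value was seen. Its late minus early difference was 0.26 in WT and 0.86 in cKO, with an interaction of 0.60 (SE 0.18, unadjusted p = 0.00854, adjusted p = 1.0 by limma). It was called in cKO alone and not in WT alone, and the difference between the genotypes did not pass the adjusted threshold.

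Genes that process, carry or bind collagen were read from 8 lists of 99 genes, 91 of them tested. Their shift resembled that of the collagens in sign: 60 were higher and 9 lower in late polysomes on average over genotypes, with a median of 0.50, and 0 passed in any genotype or interaction comparison (at an unadjusted p under 0.05, 3 in early, 9 in late, 12 for averaged lysates and 0 in the interaction). The shares of all genes tested given above for each comparison apply here as well. Coding length went with the late minus early difference over all genes. The genes of these lists were not set against others of like length, and the part of length in their rises and falls was not tested.

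Enzymes that modify the chains in the endoplasmic reticulum were called higher in 10 and lower in 3 of 15. P4hb, the subunit shared by prolyl 4-hydroxylases, was at 625, 515, 558 and 465 TPM in early and 979.9, 1038, 1029 and 1219 in late libraries and rose by 0.87 (SE 0.10, limma adjusted p = 0.000118). P3h1, the prolyl 3-hydroxylase, rose by 0.93 (SE 0.12). Ppib, the cyclophilin that works in a complex with P3h1, went the other way, from 928 to 1045 TPM in early to 634 to 765 in late libraries, a difference of -0.65 (SE 0.099, limma adjusted p = 0.000461).

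Folding and export factors were called higher in 8 and lower in 4 of 15. Serpinh1, the collagen chaperone of the endoplasmic reticulum, was at 448, 396, 428 and 367 TPM in early and 767, 918, 857 and 1023 in late libraries and rose by 1.00 (SE 0.099, limma adjusted p = 5.15e-05). Mia3, which loads procollagen into export carriers, rose by 1.02 (SE 0.12, limma adjusted p = 9.54e-05). Sparc, a collagen-binding glycoprotein, rose by 0.89 (SE 0.13) at 2192 to 5492 TPM. The largest fall was that of Tmem38b, an ion channel of the endoplasmic reticulum, at -0.92 (SE 0.11, limma adjusted p = 0.00011).

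Among propeptide cleavage genes 4 of 8 were higher and 1 lower, and the 2 enhancers of C-propeptide cleavage moved apart. Pcolce was at 132, 108, 139 and 118 TPM in early and 282, 308, 304 and 351 in late libraries and rose by 1.204 (SE 0.089, limma adjusted p = 2.06e-05). Pcolce2 was at 229, 266, 219 and 242 in early and 141, 130.3, 144 and 98.4 in late libraries, a difference of -1.02 (SE 0.13, limma adjusted p = 0.000194). The early and late libraries of each gene did not overlap. All 5 crosslinking enzymes were higher, with Lox at 0.74 (SE 0.10), Loxl1 at 0.47 (SE 0.065), Loxl2 at 0.88 (SE 0.095) and Loxl4 at 0.37 (SE 0.11).

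Collagen receptors were higher in 8 of 9 and lower in 0. The collagen-activated kinase Ddr1 rose by 0.86 (SE 0.087, limma adjusted p = 5.67e-05) and Itgb1, the shared β1 integrin chain, by 0.60 (SE 0.11, limma adjusted p = 0.00119), while Lair1, an inhibitory receptor of immune cells, had -0.44 (SE 0.19, limma adjusted p = 0.07). Other basement membrane proteins were higher in 9 of 17 and lower in 0. Nid1, which links laminin to type IV collagen, rose by 0.58 (SE 0.16, limma adjusted p = 0.0117). Lamc1 had 0.50 (SE 0.22, limma adjusted p = 0.0715) and Lama3 0.026 (SE 0.14, limma adjusted p = 0.875).

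Matrix proteoglycans and fibril partners were higher in 10 of 14 and lower in 0. Decorin (Dcn), which coats type I fibrils, rose by 0.89 (SE 0.11, limma adjusted p = 0.000162), biglycan (Bgn) by 0.65 (SE 0.095) and fibromodulin (Fmod) by 0.98 (SE 0.080), while fibronectin (Fn1) had 0.053 (SE 0.082, limma adjusted p = 0.589). Genes of collagen breakdown were higher in 6 of 8 and lower in 1. Ctsk, the collagenase of bone-resorbing cells, was at 368 to 523 TPM in early and 993 to 1164 in late libraries and rose by 1.12 (SE 0.11, limma adjusted p = 4.35e-05). Timp2, an inhibitor of matrix metalloproteinases, had -0.73 (SE 0.11, limma adjusted p = 0.000354).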

How the data were processed

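The authors deposited 1 table of TPM values with a column for each of 8 libraries, each summing to 1000000. Per the submitters' processing notes, FastQC, cutadapt, STAR and DESeq2 were used with the mm10 build; their versions, the counting method and its use of strand are not given in the sources used here. Whole reads were inferred from the steps between TPM values for 19783 genes (100.0% whole within 0.001). For genes above 0 in few libraries a common step can be found by chance, so this share is no check on them. In simulated libraries the reads of 99.4% of genes above 0 in 2 or more libraries were recovered exactly.

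After scaling by median ratios (0.931 to 1.06), log2 values with a pseudocount of 1 were fitted with limma 3.58.1 (R 4.3.3) over 4 groups with a mean-variance trend, for the 16097 genes with a mean of 1 TPM or more. Tests were two-sided and Benjamini-Hochberg adjusted over these genes, with a threshold of 0.05. The scale understates changes of low genes. Genotype was also tested on lysate means (2 WT, 2 cKO). The fits were tested on simulated data.

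Both libraries of a lysate bear its name, so late was paired with early by lysate in a second fit. Their deviations from group means correlated over all genes at 0.0862 (WT) and 0.0502 (cKO), and over collagen genes at 0.721 and 0.861.

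Positions, coding lengths and Gly-X-Y runs came from GENCODE M21 (GRCm38), which held 96.0% of symbols and may not be the authors' annotation. Members named with every library's value were the most abundant of each class, the 3 largest and 3 smallest late against early differences and the 3 smallest genotype p-values; Col23a1 in the interaction, and the values of other members, were added after they were seen. In the other lists the most abundant and most changed genes were named. Members, classes and lists were chosen with earlier results of these data known. The Cre line and 1 gene of the other lists are not reported here. Figures were drawn with matplotlib 3.10.9.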

Additional observations from a re-analysis of the deposited data

How the results depend on the processing

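Settings varied were the pseudocount (0.1, 0.5), the filter (none, or a mean of 5 TPM), the scaling (none, quantile), the trend, voom on inferred reads, replicate blocks, only the 4 libraries compared, and each library or lysate left out; leaving out lysates in the length relation was added after seeing the data. The count of collagens called higher in late on average (24) ranged from 11 to 30 with 1 library left out. In WT (10) it was 16 with voom, 25 with the lysate replicate block and 4 to 18 with 1 library left out; in cKO (11) it was 6 without a filter, 6 without the trend, 24 with the block and 5 to 13 with 1 library left out. The count on average over genotypes was 16 without a filter, 18 without the trend and 23 with a mean of at least 5 TPM. It was 27 with quantile normalization, 29 with the lysate block and 30 with voom or with unscaled TPM. A group left with 1 library was assumed to vary like the others. Genotype and interaction counts were 0 in every setting run. WT and cKO lysates share only a number, not a stated batch; with the number as a replicate block 0 collagens were called in early, in late or for averaged lysates (3, 6 and 13 of 38 at an unadjusted p under 0.05, against 8.41%, 11.9% and 21.2% of all genes tested), and 7, 2 and 82 genes of all tested were called. Same-numbered WT and cKO libraries had deviations that correlated over all genes at 0.331 in early and 0.142 in late, and over collagen genes at 0.806 and 0.799. The rho with coding length (-0.28) was -0.46 with the Gly-X-Y run and -0.33 to -0.21 with 1 lysate left out. With unscaled TPM the median late against early difference of collagens was 0.63, where that of all genes moved by 0.087. Of 571 alternatives for named collagens 493 kept direction and side of the threshold, 50 lost the call, 19 gained it and 9 changed sign. The sign changes were in Col2a1 (-0.57 to 0.034 with 1 library left out), Col9a2 (0.087 with unscaled TPM, 0.010 with quantile normalization, -0.11 to 0.054 with 1 library left out) and Col27a1 (-0.0010 with voom, -0.17 to 0.19 with 1 library left out), none of them called; the cause was not tested. Depth limits Col4a6 and Col20a1 most among tested members, at 15 and 18 reads in their lowest libraries.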
